A study of Rattus norvegicus with 16 samples.

Results

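The transcripts of 2 growth factor genes, Igf1 and Tgfb1, were followed across the 4 groups of primary rat microglia, 2 of 30560 genes listed. They were chosen by name for their role and not by a rule on a measured value, as the identifiers ENSRNOG00000004517 (Igf1) and ENSRNOG00000020652 (Tgfb1). Earlier results of these data were known when the choice was made. The deposited tables list identifiers without names, so the pairing of identifier and name is that of the list by which the genes were chosen, and it was not checked against a rat Ensembl annotation here.

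Microglia are the resident macrophages of the brain. Igf1 encodes insulin-like growth factor 1, a secreted peptide that acts through the receptor Igf1r and the downstream PI3K-Akt pathway and promotes survival and growth of neurons and of the oligodendrocyte lineage; microglia are among its sources in the brain. Tgfb1 encodes transforming growth factor beta 1, which is secreted in a latent complex, is released by activating integrins and signals through Tgfbr1, Tgfbr2 and Smad proteins. It is known to maintain the homeostatic state of microglia and to restrain inflammatory signalling.

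All cells were wild type and were cultured to day 12 in vitro. The groups were LPS+ApoA-I (lipopolysaccharide at 100 ng/ml for 20 hours, with apolipoprotein A-I protein at 100 ug/ml in the medium), LPS (the same lipopolysaccharide without the protein), ApoA-I (the protein at 100 ug/ml without lipopolysaccharide) and Control (neither agent), with 4 libraries each. Lipopolysaccharide is a bacterial outer membrane component that activates Toll-like receptor signalling, and ApoA-I is the main protein of high-density lipoprotein. The sources used here do not give the strain, sex or age of the animals, the source of the protein, or how long it was present apart from the lipopolysaccharide. Whether replicates came from separate cultures is likewise not stated, and p-values therefore reflect a spread between libraries that could be technical only.

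Total estimated counts per library ranged from 12304916 to 17262383, and 11902 genes had enough counts to be tested, both growth factors among them with at least 47 counts in every library. The TMM scaling factors, which correct for differences in RNA composition, were 0.938 ± 0.0186 in LPS+ApoA-I, 0.846 ± 0.0472 in LPS, 1.15 ± 0.0493 in ApoA-I and 1.10 ± 0.0424 in Control libraries (SD, n = 4 each). They move small fold changes: the median log2 fold change of all tested genes in LPS against Control was -0.04 with TMM and -0.42 with library totals alone. Over all tested genes, LPS 4 and ApoA-I 2 stood apart from the other replicates of their groups. Chi-square per degree of freedom was 78.4 to 96.2 in pairs with LPS 4 and 4.00 to 5.26 among the other LPS libraries, and 54.6 to 72.4 in pairs with ApoA-I 2 and 8.35 to 12.3 among the other ApoA-I libraries. Without LPS 4, Igf1 differed by -5.04 log2 units in LPS against Control and by 1.83 in LPS+ApoA-I against LPS, and Tgfb1 by -0.13 and -0.05. Without ApoA-I 2, the log2 fold changes in LPS+ApoA-I against ApoA-I were -3.19 for Igf1 and -0.34 for Tgfb1. Leaving out LPS 4 changed no call of either gene, and leaving out ApoA-I 2 changed only that of the Tgfb1 interaction, which then passed the test.

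The labelled cell type was not checked against marker genes, because the identifiers are not paired with names.

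In RefSeq on the rat assembly GRCr8, Igf1 lies on chromosome 7 from 24169608 to 24249446 with 9 annotated transcripts, and Tgfb1 on chromosome 1 from 90324312 to 90340627 with 1. The 250 bases before the transcript start that RefSeq gives for each gene are shown because the members responded very differently to LPS, and to place their start regions beside each other. They run over chr7:24172282-24172531 (Igf1) and chr1:90324062-90324311 (Tgfb1), both on the plus strand, and capitals mark a match to the C/EBP motif.
Igf1 upstream region: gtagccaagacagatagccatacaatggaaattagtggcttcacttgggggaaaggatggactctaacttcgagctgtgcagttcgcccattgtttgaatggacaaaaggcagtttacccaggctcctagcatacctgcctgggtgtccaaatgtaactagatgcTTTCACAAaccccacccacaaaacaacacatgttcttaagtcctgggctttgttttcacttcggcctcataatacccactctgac
Tgfb1 upstream region: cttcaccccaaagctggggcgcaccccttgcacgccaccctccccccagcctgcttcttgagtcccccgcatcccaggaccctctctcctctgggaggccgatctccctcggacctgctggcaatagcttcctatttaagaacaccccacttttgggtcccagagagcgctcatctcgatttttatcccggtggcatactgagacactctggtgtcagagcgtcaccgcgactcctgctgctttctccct
The start used for Igf1 lies 2924 bases inside the gene's outermost annotated start, so the window covers only 1 of its start regions. The G and C content was 46.8% for Igf1 and 60% for Tgfb1, with a median of 51.2% over the 33469 promoters of the RefSeq table. C/EBP was searched as TTNNGNAA on both strands; Igf1 held 1 match, beginning 85 bases before the start on the minus strand, and Tgfb1 held 0, where 37.2% of all windows of this length hold at least 1. Neither window held a match to NF-kB (in 6.33% of windows), AP-1 (TGANTCA, 6.34%), the GC box (GGGCGG, 30.5%) or the TATA box (TATAAA, 12.9%). With no match to another motif searched, there was none that the C/EBP match could overlap. A match is a description of letters, and no factor binding was measured.

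Igf1 was the member that changed most. LPS lowered it 33.0-fold, and in cells that had LPS together with ApoA-I it was 3.57-fold higher than with LPS alone, while still 9.26-fold below Control. ApoA-I without LPS made no detectable difference. Tgfb1 stayed abundant in all 4 groups, and its smaller differences depended in part on how the libraries were scaled. In bulk samples, fewer cells of a type and less RNA per cell cannot be told apart.

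Igf1 had 180, 246, 257 and 294 counts in LPS+ApoA-I libraries and 63, 47, 60 and 59 counts in LPS libraries. It had 2136, 1961, 2408 and 2637 counts in ApoA-I libraries and 2714, 2543, 3214 and 2098 counts in Control libraries. All 8 libraries with LPS were far below all 8 without, the LPS libraries lay below every LPS+ApoA-I library, and ApoA-I and Control libraries overlapped. How many of all genes split without overlap was not counted. By the TMM fit, 74.7% of tested genes were called in LPS against Control and 51.4% in LPS+ApoA-I against LPS. As CPM (counts scaled to a common library size after TMM), the level was 17.5 ± 2.52 in LPS+ApoA-I, 4.93 ± 0.703 in LPS, 155 ± 20.0 in ApoA-I and 162 ± 20.7 in Control (SD, n = 4 each).

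On the TPM scale, which takes gene length into account, Igf1 was listed by the authors at 9.14, 9.39, 8.43 and 9.44 in LPS+ApoA-I libraries and at 2.37, 3.38, 1.76 and 4.49 in LPS libraries. The TPM values were 81.1, 70.4, 82.4 and 100.6 in ApoA-I libraries and 91.1, 94.3, 90.0 and 70.4 in Control libraries. The order of levels was therefore LPS, LPS+ApoA-I, then ApoA-I and Control, and the last 2 did not differ beyond their spread. By TPM, Igf1 ranked between 6614 and 7022 from the top of the listed genes in LPS+ApoA-I libraries, between 8207 and 9571 in LPS, between 1393 and 1893 in ApoA-I and between 1420 and 1908 in Control. The number of genes with a TPM above 0 ranged from 13381 in LPS 4 to 14230 in Control 3. Igf1 thus stood among the more abundant transcripts of cells without LPS and not of cells with it.

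**Figure D1:**
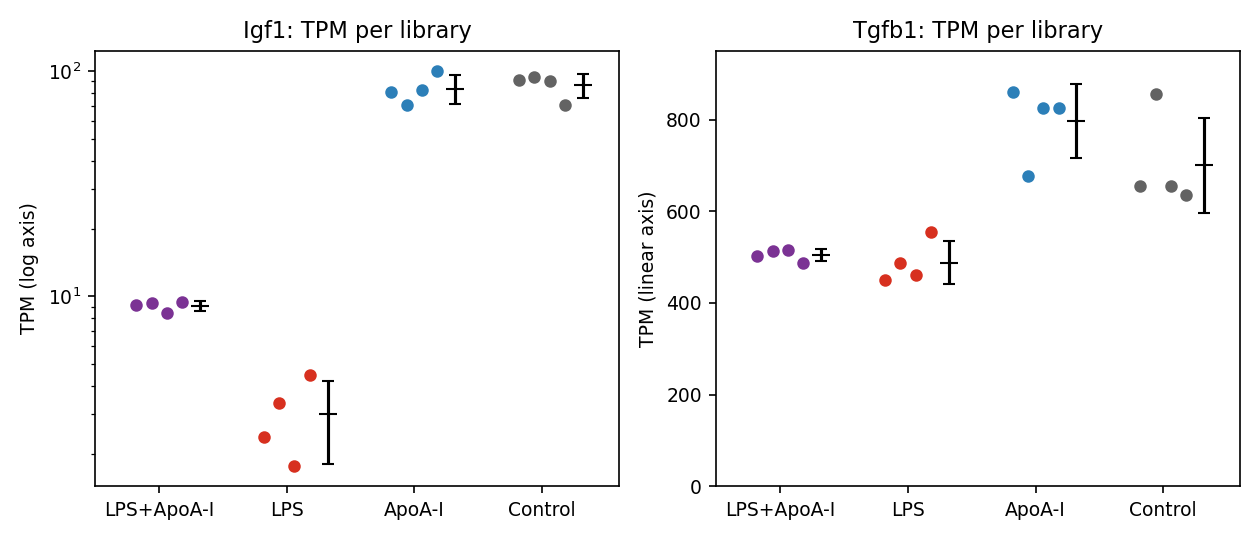
TPM of Igf1 (left, log axis) and Tgfb1 (right, linear axis from 0) in each of the 16 libraries, as points by group, with the mean and SD (n = 4) as bars beside them. Igf1 sits between 1.76 and 4.49 TPM in LPS libraries and between 8.43 and 9.44 TPM in LPS+ApoA-I libraries, against at least 70.4 TPM in all libraries without LPS, while Tgfb1 stays at or above 449.9 TPM throughout.

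LPS against Control addresses the response to the endotoxin alone. Igf1 fell by 5.04 on the log2 scale (SE 0.14, 95% interval -5.33 to -4.76, edgeR adjusted p = 5.53e-19), to 3.04% of the Control mean in CPM. Calls were frequent in this comparison, with 74.7% of tested genes called and 38.4% called lower with TMM; the share called lower was 56.6% with library totals and 58.0% on log2(TPM + 1). The size was less common: 124 of the 11902 tested genes (1.04%) had a lower log2 fold change. On log2(TPM + 1) the change was -4.49 (limma adjusted p = 3.06e-14), a scale that understates the change of low values. The change was -4.88 on log2(TPM + 0.1) and -5.43 with library totals alone. The TPM values also take in the shorter length assigned to Igf1 in some LPS libraries, described below.

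LPS+ApoA-I against LPS addresses what the apolipoprotein changes in endotoxin-treated cells. Igf1 was higher by 1.83 log2 units (SE 0.16, 95% interval 1.51 to 2.16, edgeR adjusted p = 2.15e-09). In this comparison 51.4% of tested genes were called and 26.4% were called higher (37.8% with library totals and 34.4% on log2(TPM + 1)); 204 genes (1.71%) had a larger log2 fold change than Igf1. The LPS+ApoA-I level was 10.8% of the Control mean in CPM, so most of the decrease remained. Against Control, Igf1 in LPS+ApoA-I libraries fell by 3.21 on the log2 scale (SE 0.11, edgeR adjusted p = 1.05e-16), where 69.6% of tested genes were called and 35.2% were called lower (47.8% with library totals and 50.3% on log2(TPM + 1)).

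LPS+ApoA-I against ApoA-I gives the endotoxin response in the presence of the apolipoprotein, from 8 libraries other than those of LPS against Control. Igf1 fell by 3.14 on the log2 scale (SE 0.11, edgeR adjusted p = 1.78e-16), where 69.4% of tested genes were called and 34.8% were called lower. Set against the response of -5.04 without ApoA-I, 0.622 of the log2 response was kept. The median of this share was 0.662 over the 2253 genes with a decrease of more than 1 log2 unit in LPS libraries, and 44.3% of them kept less than Igf1. Igf1 was thus near the middle of the LPS-lowered genes in the share of the response kept.

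**Figure D2:**
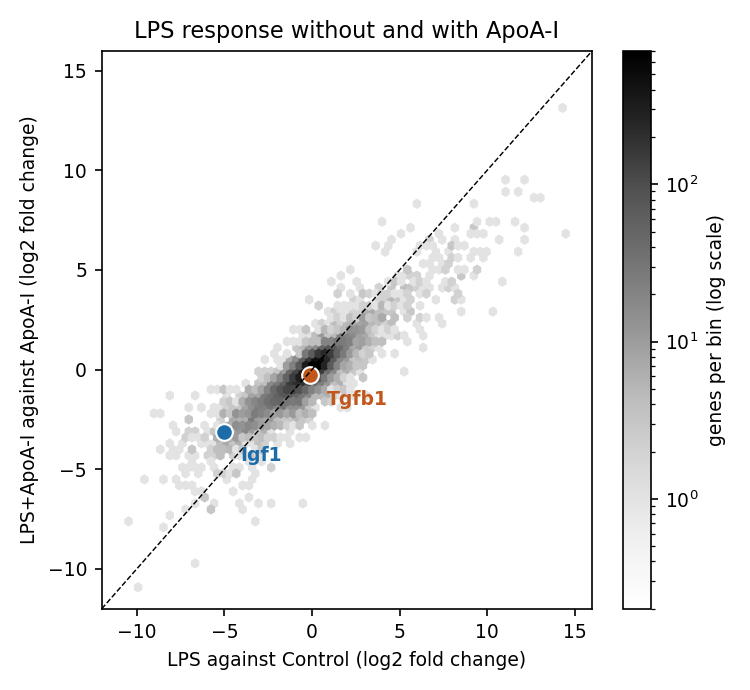
Log2 fold change of LPS against Control (horizontal axis) and of LPS+ApoA-I against ApoA-I (vertical axis) for all 11902 tested genes, as bins shaded by the number of genes on a log scale, with Igf1 and Tgfb1 marked and a dashed line where both responses are equal. Igf1 lies at -5.04 and -3.14, above the line, and Tgfb1 at -0.09 and -0.29, in the dense centre.

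ApoA-I against Control addresses the apolipoprotein in unstimulated cells, where 4.27% of tested genes were called. Igf1 differed by -0.07 log2 units (SE 0.09, 95% interval -0.27 to 0.12, edgeR adjusted p = 0.756), less than the spread between libraries. The interaction, the effect of ApoA-I with LPS minus its effect without, was 1.90 log2 units for Igf1 (SE 0.18, 95% interval 1.52 to 2.29, edgeR adjusted p = 3.43e-08). For the interaction 41.0% of tested genes were called and 20.8% had a positive call, and 223 genes (1.87%) had a larger value than Igf1.

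Tgfb1 was abundant in every library. It had 5407, 7147, 6100 and 6241 counts in LPS+ApoA-I libraries and 4752, 5062, 6282 and 6075 counts in LPS libraries. It had 8515, 7015, 8622 and 8265 counts in ApoA-I libraries and 7413, 8911, 9014 and 7466 counts in Control libraries. Unscaled, the counts of 7 of the 8 libraries with LPS lay below all 8 without it, and LPS+ApoA-I 2, at 7147 counts, lay above ApoA-I 2. On the CPM scale Tgfb1 averaged 447 ± 12.8 in LPS+ApoA-I, 474 ± 24.6 in LPS, 547 ± 33.8 in ApoA-I and 506 ± 58.2 in Control libraries (SD, n = 4 each). The means span a narrow range, and only LPS+ApoA-I libraries stood clear of both groups without LPS.

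The authors' TPM values for Tgfb1 were 502, 513, 515 and 487 in LPS+ApoA-I libraries and 450, 487, 461 and 554 in LPS libraries. They were 860, 677, 826 and 824 in ApoA-I libraries and 656, 855, 655 and 636 in Control libraries. On this scale the 8 libraries with LPS and the 8 without did not overlap, whereas in CPM the LPS and Control libraries did. The share of all genes that split without overlap was not counted, here or for the other splits described. On log2(TPM + 1), 58.0% of tested genes were called lower in LPS against Control, so such a split need not be particular to Tgfb1. From the lowest mean up, the order in TPM was LPS, LPS+ApoA-I, Control and ApoA-I. In CPM the first 2 changed places, and the libraries of these 2 groups overlapped on both scales. By TPM, Tgfb1 ranked between 281 and 291 from the top in LPS+ApoA-I libraries, between 270 and 316 in LPS, between 184 and 219 in ApoA-I and between 186 and 238 in Control.

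In LPS against Control, Tgfb1 differed by -0.09 log2 units with TMM (SE 0.07, 95% interval -0.23 to 0.04, edgeR adjusted p = 0.195) and did not pass the test. With library totals alone the difference was -0.48 (edgeR adjusted p = 4.44e-05), and on log2(TPM + 1) it was -0.51 (limma adjusted p = 6.51e-05), so the call depends on the scaling. Relative to the median of all tested genes, the change was -0.06 in the TMM fit and -0.06 in the fit on library totals, and -0.14 on log2(TPM + 1). Measured against the other genes of the same libraries, Tgfb1 was thus close to the middle, with 47.3% of tested genes having a lower log2 fold change.

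In LPS+ApoA-I against LPS, the difference of Tgfb1 was -0.09 log2 units with TMM (SE 0.07, 95% interval -0.22 to 0.05, edgeR adjusted p = 0.287) and its sign turned with library totals (0.06) and on log2(TPM + 1) (0.05). No direction can be given for it. In ApoA-I against Control it was 0.11 log2 units (SE 0.06, 95% interval -0.02 to 0.25, edgeR adjusted p = 0.372), positive under every scaling tried and past the threshold in none.

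LPS+ApoA-I against ApoA-I was the comparison in which the Tgfb1 call held throughout. Tgfb1 fell by 0.29 on the log2 scale (SE 0.07, 95% interval -0.43 to -0.16, edgeR adjusted p = 0.000422), or 1.22-fold, and stayed lower and called under each alternative tried. With library totals the log2 fold change was -0.59, which is -0.28 relative to the median of all tested genes on that scale. A share of 34.8% of tested genes was called lower in this comparison by the TMM fit, 50.8% by library totals and 54.8% by log2(TPM + 1). With TMM, 34.9% had a lower log2 fold change than Tgfb1. This comparison shares no library with LPS against Control, and the difference between them for Tgfb1 is the interaction, which was -0.20 log2 units (SE 0.09, edgeR adjusted p = 0.0908) and did not pass the test.

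Against Control, Tgfb1 in LPS+ApoA-I libraries fell by 0.18 on the log2 scale (SE 0.06, 95% interval -0.31 to -0.04, edgeR adjusted p = 0.0182). With TMM, 69.6% of tested genes were called in this comparison and 35.2% were called lower. The share called lower was 47.8% with library totals and 50.3% on log2(TPM + 1). By the TMM fit, 40.7% of tested genes had a lower log2 fold change than Tgfb1. The call of Tgfb1 was lost without the library Control 2 (-0.10, edgeR adjusted p = 0.130) and without LPS+ApoA-I 4 (-0.16, edgeR adjusted p = 0.0532). Control 2 was the Control library with the highest Tgfb1 level. Without it the interaction passed the test (-0.28, edgeR adjusted p = 0.00555), as it did without ApoA-I 2 (-0.24, edgeR adjusted p = 0.0382), the ApoA-I library with the lowest level. With all libraries, 41.0% of tested genes were called for the interaction.

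**Figure D3:**
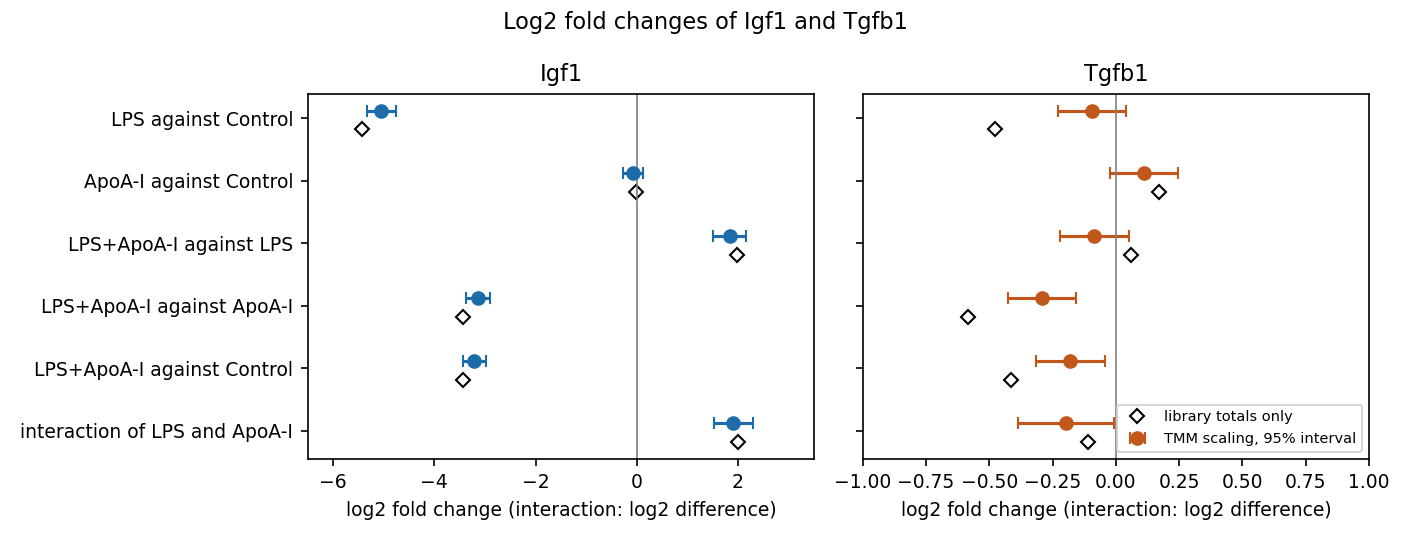
Log2 fold changes of Igf1 (left) and Tgfb1 (right, narrower axis) in 5 comparisons and the interaction, as filled points with 95% intervals from edgeR with TMM scaling, and as open diamonds with library totals only. For Igf1 the diamonds keep the sign of the points; for Tgfb1 the diamond lies at -0.48 in LPS against Control, where the point lies at -0.09, and on the other side of 0 in LPS+ApoA-I against LPS.

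The ratio of Igf1 to Tgfb1 within a library does not depend on the scaling between libraries. Per length, by TPM, Tgfb1 was the more abundant transcript in all 16 libraries. Igf1 stood at 1.81% ± 0.125 of the Tgfb1 level in LPS+ApoA-I, 0.603% ± 0.188 in LPS, 10.5% ± 1.20 in ApoA-I and 12.4% ± 1.60 in Control libraries (SD, n = 4 each). The lowest LPS+ApoA-I library was at 1.64%, above the highest LPS library at 0.811%, and the lowest library without LPS was at 9.43%.

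The log2 ratio differed by -4.41 in LPS against Control, by 1.64 in LPS+ApoA-I against LPS, by -2.54 in LPS+ApoA-I against ApoA-I and by -2.78 in LPS+ApoA-I against Control. For each, the exact permutation test (two-sided) gave p = 0.0286, its lowest possible value with 4 libraries a group (0.0357 after Benjamini-Hochberg adjustment over the 5 comparisons). In ApoA-I against Control the difference was -0.24 (two-sided exact permutation p = 0.114, adjusted 0.114). In each of the first 4 comparisons the groups did not overlap, and in ApoA-I against Control they did.

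**Figure D4:**
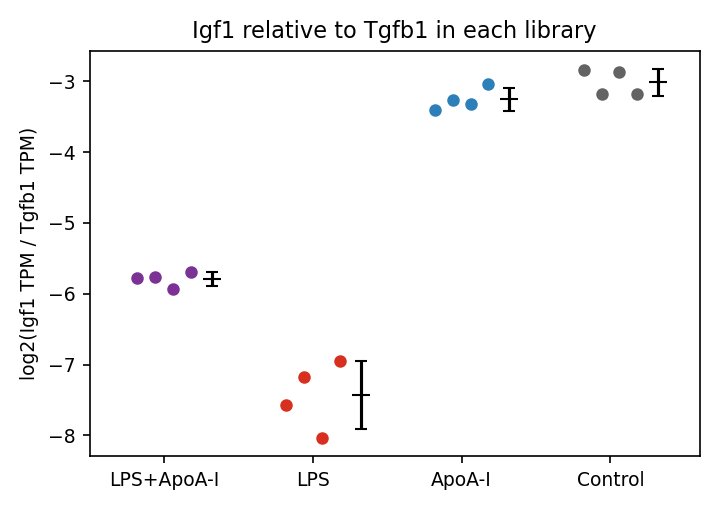
Log2 ratio of Igf1 TPM to Tgfb1 TPM in each library, as points by group, with the mean and SD (n = 4) as bars. The means are -5.79 in LPS+ApoA-I, -7.43 in LPS, -3.26 in ApoA-I and -3.02 in Control, and only the ApoA-I and Control points overlap.

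The TPM values of Igf1 in LPS libraries spread more than its counts. The coefficient of variation over the 4 LPS libraries was 39.9% in TPM and 14.3% in CPM. LPS 1 and LPS 3, with 63 and 60 counts, were listed at 2.37 and 1.76 TPM, whereas LPS 2 and LPS 4, with 47 and 59 counts, were listed at 3.38 and 4.49 TPM. Counts divided by TPM are proportional to the length the authors' quantification assigned to the gene, once each library is scaled by its median over 6537 well measured genes.

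This relative length of Igf1, as a percentage of the Control mean, was 70.6, 72.9, 99.8 and 94.1 in LPS+ApoA-I libraries and 97.2, 51.6, 96.6 and 46.4 in LPS libraries. It was 103, 104, 107 and 100.3 in ApoA-I libraries and 102, 100.1, 100.1 and 98.0 in Control libraries. The libraries with LPS thus fell into some with a length like that of Control and some with a shorter one, whereas libraries without LPS stayed within 98.0% to 107%. For Tgfb1, which has 1 RefSeq transcript, it stayed within 99.2% to 100.5% in all 16 libraries.

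Of 1826 other genes with a mean of 30 to 100 counts in LPS libraries, 6 (0.329%) had a larger SD of the log2 relative length over the 4 LPS libraries than Igf1 (0.57, against a median of 0.01). Counts per transcript were not analysed here, and the cause of the shorter length in some libraries was not tested. The length enters the calculation only of the TPM values and the ratio. The count-based results above do not use it, and so are not corrected for any difference in length. With counts in place of TPM, the log2 ratio of Igf1 to Tgfb1 differed by -4.95 in LPS against Control and by 1.91 in LPS+ApoA-I against LPS.

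**Figure D5:**
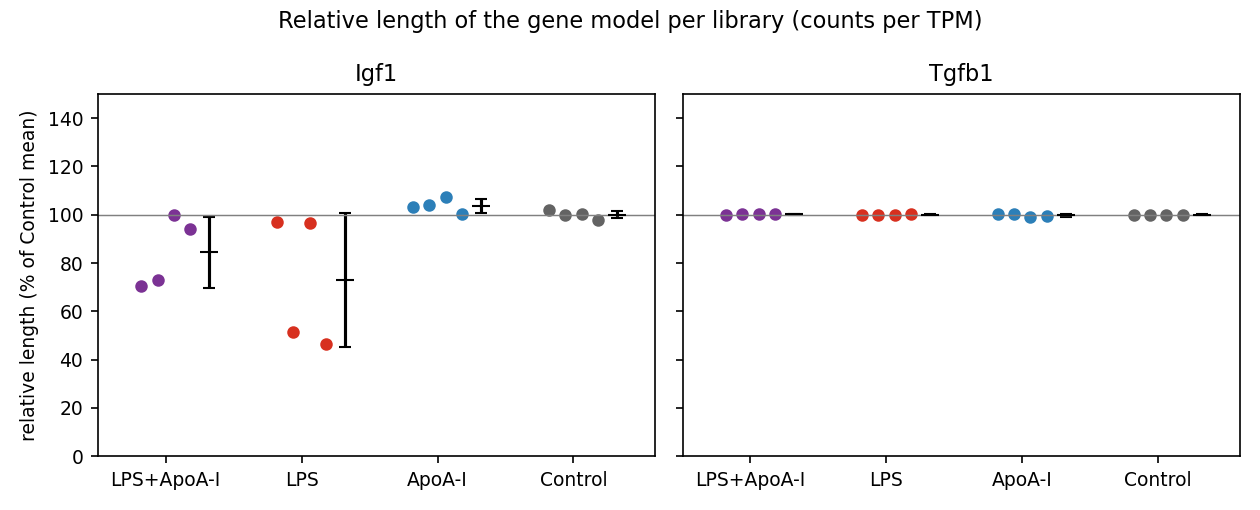
Relative length assigned to Igf1 (left) and Tgfb1 (right) in each library, from counts per TPM, as a percentage of the gene's Control mean, with points by group and the mean and SD (n = 4) as bars. Igf1 drops to 46.4% and 51.6% in 2 LPS libraries and to 70.6% and 72.9% in 2 LPS+ApoA-I libraries, while Tgfb1 stays near 100%.

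The gene whose pattern over the 16 libraries was most like that of Igf1 was ENSRNOG00000001518, for which the files give no name, with a Pearson's r of 0.998 of log2 CPM among 9345 genes with at least 5 mean CPM. It had 70.4 ± 8.86 CPM in LPS+ApoA-I, 32.2 ± 2.16 in LPS, 348 ± 28.2 in ApoA-I and 379.9 ± 50.8 in Control libraries (SD, n = 4 each). Such likeness was common, as 945 of these genes had an r above 0.95 to Igf1. For Tgfb1 the highest r was 0.870, to ENSRNOG00000025285, with 16.1 ± 1.10 CPM in LPS+ApoA-I, 17.2 ± 0.948 in LPS, 20.0 ± 1.97 in ApoA-I and 19.0 ± 2.24 in Control libraries (SD, n = 4 each), and 0 genes exceeded 0.95. These values describe libraries that fall into separate groups, and they share the library scaling.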

How the data were processed

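Bulk RNA sequencing data of 16 libraries were analysed, with groups taken from the sample titles. The authors deposited a table of estimated counts and a table of TPM values, both per gene and library. Per the submitters' processing notes, the tools were RSEM 1.3.1, STAR 2.7.10b and cutadapt 1.8.1 (their roles are not stated), and the build is named as mm10, a mouse assembly, although the identifiers carry the Ensembl rat prefix. The sources used here do not name the annotation, and one that differs from that of the identifiers would affect counts of single genes.

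Estimated counts (3.24% not whole, tolerance 0.005) were rounded. Genes were kept by filterByExpr with a minimum count of 10, and all 16 libraries were fitted together with edgeR 4.0.16 in R 4.3.3 (TMM, 4 group means, quasi-likelihood F test, 12 residual degrees of freedom). P-values were Benjamini-Hochberg adjusted over 11902 genes, threshold 0.05. The SE of a log2 fold change was its size over the root of the F statistic. Ratios of TPM were tested by exact permutation. Alternatives used DESeq2 1.42.0, limma 3.58.1 on log2 TPM with pseudocounts of 1 and 0.1, other scalings, no filter, 2 groups only, a replicate block and each library left out. The edgeR fits with and without the block, DESeq2 and limma were run on simulated counts with known changes; no value from these runs is given.

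Members and lists were chosen with earlier results of these data known. Lists of IGF and TGF-beta pathway genes and of cell type markers, fixed by symbol, could not be applied, because the RefSeq table gives an Ensembl identifier for 0 of 47357 genes; for the same reason 1 most alike gene per member is named by identifier. The relative length was examined after the values had been seen. No pair of replicates looked like a library deposited again: over 24 pairs, chi-square divided by its degrees of freedom was 3.14 to 96.2.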

Additional observations from a re-analysis of the deposited data

Results flagged for a closer look

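Igf1 differed in its response to ApoA-I between cells with and without LPS, with an interaction of 1.90 on the log2 scale (edgeR adjusted p = 3.43e-08). Such calls were frequent: 41.0% of tested genes were called for the interaction, and 20.8% had a positive call. The 4 LPS+ApoA-I libraries all lay above the 4 LPS libraries, while ApoA-I and Control libraries overlapped. The share of all genes that split in this way was not counted.

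For Tgfb1, 1 library stood apart from its group in each of 2 cases. ApoA-I 2 had 497 CPM, against 560 to 570 CPM in the other 3 ApoA-I libraries; this library also stood apart over all tested genes. Control 2 was listed at 855 TPM, against 636 to 656 TPM in the other 3 Control libraries. Of 28 sets of 4 values examined in this way 2 stood out, and chance gives about 1 in 20. The causes were not tested.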

How the results depend on the processing

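The 143 alternative values of Igf1 all kept the direction and side of the threshold; log2 fold changes ranged from -5.43 to -4.49 in LPS against Control and from 1.38 to 1.98 in LPS+ApoA-I against LPS. Some of these fits left out a library of neither group compared, which could move the log2 fold change little. Of 143 values for Tgfb1, which include such fits too, 133 kept both direction and side. Its difference in LPS against Control passed the test with library totals (-0.48), on log2(TPM + 1) (-0.51) and on log2(TPM + 0.1) (-0.52), and in LPS+ApoA-I against LPS the sign turned under the same settings (0.0616, 0.0521 and 0.0522), scalings that also move the median of all genes. Leaving out single libraries, the log2 fold change of Tgfb1 ranged from -0.21 to -0.10 in LPS+ApoA-I against Control and from -0.28 to -0.16 in the interaction.

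The number of genes called in ApoA-I against Control was 508, but 806 with DESeq2, 310 on log2(TPM + 1), 238 on log2(TPM + 0.1), 90 with only the 2 groups compared, and 186 to 781 with 1 library left out; neither member was called in any of these. The other 5 counts stayed within 1.5 times, but the direction of calls moved with the scaling. The share of calls that were higher, or positive for the interaction, was 58.5% by the TMM fit, 83.1% by library totals and 81.6% by log2(TPM + 1) in ApoA-I against Control. In the same order it was 48.6%, 25.5% and 23.6% in LPS against Control, 51.4%, 71.8% and 69.9% in LPS+ApoA-I against LPS, 49.8%, 26.7% and 22.4% in LPS+ApoA-I against ApoA-I, 49.4%, 31.2% and 27.7% in LPS+ApoA-I against Control, and 50.7%, 65.1% and 60.4% in the interaction. The cause was not tested.

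Same-numbered replicates did not visibly deviate together (correlations -0.23 to 0.14, 2 of 24 pairs over 0.1). The mean correlation was -0.002 for the same number and 0.0007 for different numbers. The best match had the same number in 14 of 48 cases. Whether same-numbered replicates shared a culture or batch cannot be told from these values. With the replicate block the log2 fold changes were -5.05 (Igf1) and -0.09 (Tgfb1) in LPS against Control, 1.84 and -0.09 in LPS+ApoA-I against LPS, -3.14 and -0.29 in LPS+ApoA-I against ApoA-I, and 1.91 and -0.20 in the interaction, and 469 genes were called in ApoA-I against Control; no call of either member changed. With 1 library left out, the 4 ratio differences that passed the exact permutation test passed it each time (adjusted p = 0.0357, from 35 arrangements). Their groups do not overlap, so leaving out a library could not change this outcome, and it adds no support. ApoA-I against Control did not pass (lowest adjusted 0.0857). The exact sign-flip test over 4 pairs cannot go below 0.125. Depth limits Igf1 in LPS libraries, with 47 to 63 counts each.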
